A study of Caenorhabditis elegans with 22 samples.

Results

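The 8 genes examined here are known from work on adults and dauers. They are the metallothionein genes *mtl-1* (K11G9.6) and *mtl-2* (T08G5.10), the ferritin genes *ftn-1* (C54F6.14) and *ftn-2* (D1037.3), *scl-1* (F49E11.9), *dod-3* (C24B9.9), *dao-3* (K07E3.3) and an AMP-activated kinase gene (T20F7.6), and they were followed through the response of *C. elegans* embryos to salt. They were listed by name, with earlier results of these data known, as 8 of the 45460 genes in the table. The first question was whether genes tied to the transcription factor DAF-16 in adults respond to high salt in embryos. The next was whether that response needs SSU-1 or DAF-16. T20F7.6 was listed as *aakg-4*, but the annotation names it *aakg-2*, and it stays in the counts of the 8. Experiment 1 held *ssu-1(fc73)* embryos at 500 mM NaCl (n = 3 libraries) and 50 mM NaCl (n = 2), and wild-type Bristol N2 embryos at 500 mM (n = 3) and 50 mM (n = 2). Experiment 2 held *daf-16(m26)* embryos at 500 mM and 50 mM and wild-type embryos at 500 mM and 50 mM, with n = 3 libraries each. All embryos had spent 3 h on NGM plates of the stated NaCl concentration, and whole embryos were lysed, so that fewer cells of a type and less RNA per cell cannot be told apart in any value below. The alleles are those of the growth protocol. The strain labels are wider, naming further *ssu-1* alleles together with the transgene zIs356 *daf-16::gfp* for *ssu-1* and a second allele for *daf-16*. The age within embryogenesis is not given in the sources used here.

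Values are FPKM, fragment counts scaled to the transcript's length in kilobases and to the library's mapped fragments, and their sums per library lay between 736577 and 877080. The depth, estimated from the spacing of low values, was between 15000000 and 27400000 fragments per library (median 22000000). Differences were tested on log2(FPKM + 1) within an experiment with limma, and a gene was called at a Benjamini-Hochberg adjusted p-value under 0.05 over all genes tested. Log2 values and standard errors (SE) below are on that scale, which understates the change of genes near 1 FPKM, and folds are ratios of mean FPKM. The libraries are described as biological replicates, but no label says that they came from separate cultures, so the p-values measure the spread between these libraries. *ssu-1* mRNA was lower in every *ssu-1* library (1.21 to 1.74 FPKM at 500 mM and 0.37 to 0.93 at 50 mM) than in wild type of experiment 1 (2.74 to 2.99 and 1.78 to 2.35). *daf-16* mRNA was not lower in *daf-16* mutants, so it does not check those labels, whereas *sod-3*, a textbook DAF-16 target, averaged 5.08 ± 0.96 FPKM in *daf-16* embryos at 500 mM and 171 ± 16 in wild type (SD, n = 3 each). Yolk protein genes, which mark the mother, summed to at most 2.70 FPKM, and the 5 sperm markers were under 1 FPKM in all libraries.

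DAF-16 is the FOXO transcription factor that insulin-like signaling keeps out of the nucleus; when that signaling is low it activates genes for stress resistance, metabolism and long life. SSU-1 is a cytosolic sulfotransferase of the ASJ sensory neurons. Metallothioneins are small cysteine-rich proteins that bind zinc, cadmium and copper, and ferritins form the shell in which cells store iron. In *C. elegans* larvae and adults *mtl-2* and *ftn-1* are expressed almost only in the intestine. The intestine markers in the embryos were therefore read beside these genes. Of 10 listed, 9 were found, and 8 of these could be tested. They did not move as 1 group. At 500 mM 4 were called lower and 1 higher in wild type of experiment 2, and 4 lower and 2 higher in *daf-16*. In experiment 1, 4 were lower and 3 higher in wild type, and 2 lower and 2 higher in *ssu-1*. Over all genes 33.5% were called lower and 36.7% higher in wild type of experiment 2, and 41.1% and 37.1% in *daf-16*. In experiment 1 these shares were 26.0% and 25.3% in wild type, and 18.1% and 18.5% in *ssu-1*. The counts of *daf-16* and *ssu-1* were near those shares. The summed level of the intestine markers, which the abundant ones dominate, was lower at 500 mM in each genotype. In experiment 2 it was 1526 to 1692 FPKM in *daf-16* embryos at 500 mM and 4850 to 4920 at 50 mM, and 1747 to 1937 in wild type at 500 mM and 4567 to 6608 at 50 mM. In experiment 1 the gap was smaller, with 1230 to 1327 FPKM in *ssu-1* embryos at 500 mM and 1387 to 1559 at 50 mM, and 1108 to 1274 in wild type at 500 mM and 1575 to 2023 at 50 mM. Its part in the changes of the metal genes was not tested. The endoderm gene *end-3* stayed under 1 FPKM in every group. Of 10 markers of the early embryo, 9 were called higher and 0 lower at 500 mM in wild type of experiment 1 (25.3% of all genes tested were called higher), 1 higher and 0 lower in *ssu-1* (18.5%), 8 higher and 1 lower in wild type of experiment 2 (36.7%), and 9 higher and 1 lower in *daf-16* (37.1%). Their part was not tested either. Their summed level in *daf-16* embryos was 309 to 495 FPKM at 500 mM and 223 to 239 at 50 mM. In wild type of experiment 2 it was 231 to 247 at 500 mM and 239 to 287 at 50 mM. In *ssu-1* embryos it was 212 to 244 at 500 mM and 185 to 221 at 50 mM. In wild type of experiment 1 it was 189 to 345 at 500 mM and 153 to 184 at 50 mM.

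In wild type of experiment 1, salt raised *mtl-1*, *ftn-1*, *dod-3* and *ftn-2* and lowered *mtl-2*. That is 4 of the 7 genes that passed the filter higher and 1 lower, beside 25.3% of all 13924 genes tested called higher and 26.0% lower. In wild type of experiment 2, *dao-3* rose as well, which made 5 of 7 higher and again *mtl-2* lower, beside 36.7% of 14868 genes higher and 33.5% lower. T20F7.6 was not called in any comparison, and *scl-1* was too low to test.

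*mtl-1* encodes a metallothionein that heat and heavy metals induce. In wild-type embryos of experiment 1 it had 123.95, 94.68 and 120.84 FPKM at 500 mM, against 5.69 and 6.08 at 50 mM. In wild type of experiment 2 the values were 725.89, 597.51 and 525.58 at 500 mM, against 39.25, 24.20 and 36.83 at 50 mM. In both experiments all salt-treated libraries lay above all low-salt ones, by 19.2-fold in experiment 1 (log2 change 4.04, SE 0.22, adjusted p = 5.65e-07) and by 18.4-fold in experiment 2 (4.18, SE 0.19, adjusted p = 2.04e-09). The levels of experiment 2 were 5.45 times those of experiment 1 at 500 mM and 5.68 times at 50 mM, so that the folds were alike while the levels were not. The difference between the log2 changes was 0.14 (SE 0.27, adjusted p = 0.717).

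Both mutants had less *mtl-1* at high salt. In *ssu-1* embryos it had 33.51, 25.38 and 24.43 FPKM at 500 mM, and 3.77 and 7.57 at 50 mM, a 4.90-fold rise (log2 change 2.16, SE 0.22, adjusted p = 6.46e-05). In *daf-16* embryos it had 15.27, 18.72 and 18.74 FPKM at 500 mM, and 10.66, 8.18 and 12.95 at 50 mM, a 1.66-fold rise (0.69, SE 0.19, adjusted p = 0.0047). The rise was thus 25.5% of the wild-type fold in *ssu-1* and 9.0% in *daf-16*. The log2 change in the mutant minus that in wild type was -1.89 for *ssu-1* (SE 0.31, adjusted p = 0.0133) and -3.49 for *daf-16* (SE 0.27, adjusted p = 4.81e-06). The *ssu-1* call was lost without wild-type 50 mM replicate 1 (-1.84, adjusted p = 0.0691) and with no filter on low values (adjusted p = 0.0528), while the *daf-16* call passed under each of 19 alternatives.

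At 50 mM *mtl-1* was called lower than in wild type in *daf-16* and was not called in *ssu-1*. *mtl-1* in *ssu-1* embryos overlapped wild type (log2 difference -0.11, SE 0.24, adjusted p = 0.869), while every *daf-16* library was below every wild-type one, by 3.15-fold (-1.56, SE 0.19, adjusted p = 0.000915). Whether the 50 mM differences of the mutants differ from each other was not tested, since they come from separate experiments. At 500 mM *mtl-1* was 4.07-fold lower in *ssu-1* than in wild type and 35.1-fold lower in *daf-16* than in wild type.

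**Figure D1:**
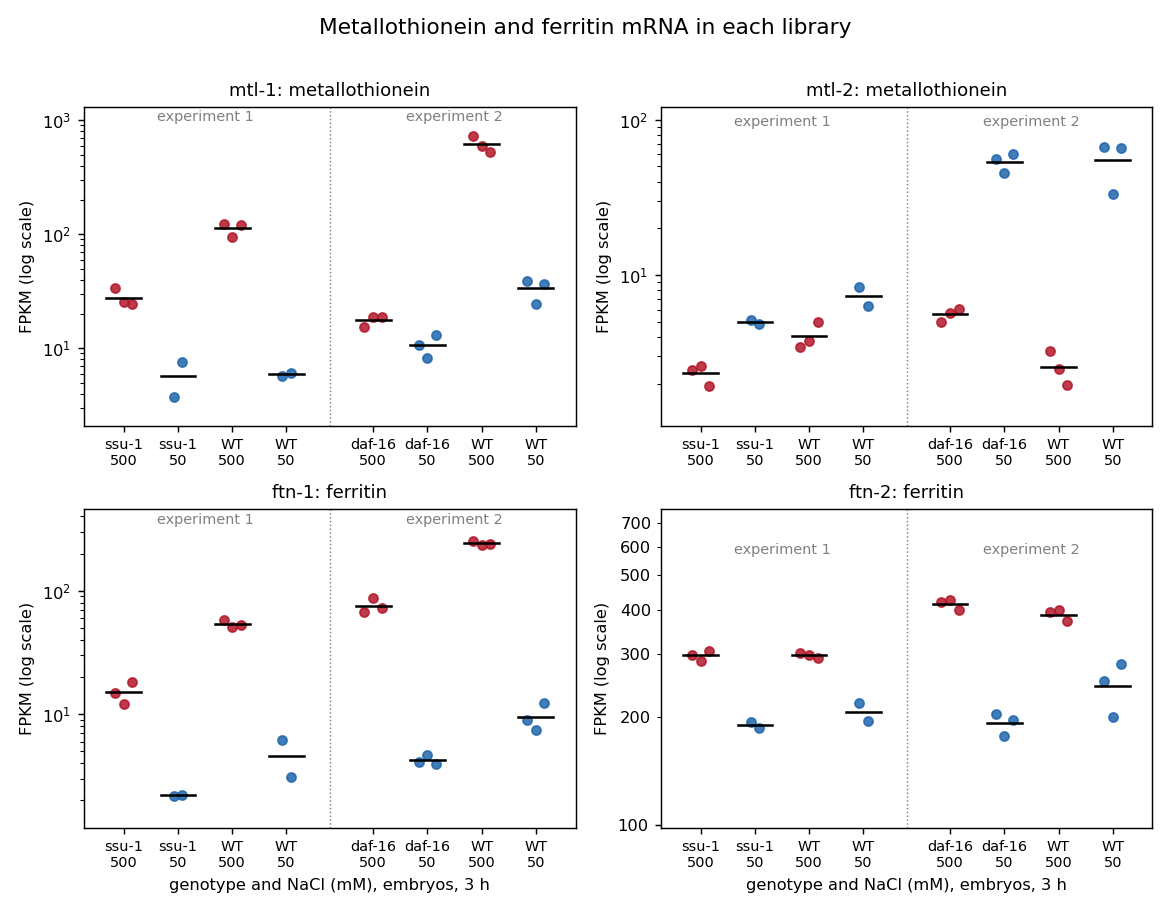
FPKM (log axis) of *mtl-1*, *mtl-2*, *ftn-1* and *ftn-2* in each of the 22 libraries by genotype and NaCl concentration; points are libraries, red at 500 mM and blue at 50 mM, and bars are group means. The wild-type 500 mM libraries of experiment 2 reach 526 to 726 FPKM for *mtl-1*, while for *mtl-2* all 500 mM libraries lie at 6.09 FPKM or less.

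*mtl-2* encodes the second metallothionein, which in larvae and adults is made almost only in the intestine. It went the other way. Wild-type embryos of experiment 2 had 3.24, 2.50 and 1.97 FPKM at 500 mM, against 66.98, 33.27 and 65.41 at 50 mM, a 21.5-fold fall (log2 change -3.93, SE 0.23, adjusted p = 1.78e-08). Those of experiment 1 had 3.45, 3.77 and 5.03 FPKM at 500 mM, against 8.37 and 6.33 at 50 mM, only 1.8-fold lower (-0.72, SE 0.16, adjusted p = 0.00418). The groups were apart in both experiments, but the fall in experiment 1 no longer passed without wild-type 50 mM replicate 1 (-0.54, adjusted p = 0.0586). The experiments differed mainly at low salt, where experiment 2 was at 7.51 times the level of experiment 1.

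The fall of *mtl-2* was present in both mutants. In *daf-16* embryos it had 5.01, 5.72 and 6.09 FPKM at 500 mM, against 55.87, 45.08 and 60.12 at 50 mM, a 9.58-fold fall (log2 change -3.04, SE 0.23, adjusted p = 1.2e-07). In *ssu-1* embryos it had 2.47, 2.60 and 1.94 FPKM at 500 mM, against 5.13 and 4.83 at 50 mM, a 2.13-fold fall (-0.85, SE 0.16, adjusted p = 0.00257). At the estimated depths the fewest *mtl-2* fragments in any library were about 10.1 to 11.7, depending on the length correction used. Single libraries at 500 mM therefore carry a large counting error. Neither difference of the changes was called (for *ssu-1* -0.13, SE 0.23, adjusted p = 0.838; for *daf-16* 0.88, SE 0.32, adjusted p = 0.0735), although the *daf-16* one passed with a pseudocount of 0.1 (1.1, adjusted p = 0.0475), with rescaled totals (0.95, adjusted p = 0.0462) and without wild-type 50 mM replicate 4 (1.21, adjusted p = 0.00246).

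At 500 mM the mutants departed from wild type in opposite directions for *mtl-2*. All *daf-16* libraries were above all wild-type ones (2.18-fold, log2 difference 0.90, SE 0.23, adjusted p = 0.012), whereas all *ssu-1* libraries were below wild type (1.75-fold lower, -0.60, SE 0.14, adjusted p = 0.0359). The call for *ssu-1* failed in 7 of 16 alternatives, among them leaving out any of the 3 *ssu-1* 500 mM libraries or wild-type 500 mM replicate 2 or 3 (adjusted p between 0.0658 and 0.138, log2 difference between -0.66 and -0.47). The 2 metallothionein genes are paralogs, and reads that fit both would have been divided between them by the authors' estimation. The intestine marker sum was also lower at 500 mM in both genotypes of experiment 2. Only 4 of its 8 tested genes were called lower in each, beside 33.5% of all genes in wild type and 41.1% in *daf-16*. The part of this sum was not tested.

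*ftn-1* encodes the ferritin whose transcription iron raises. Of the 8 genes it had the largest log2 change in wild type of experiment 2. In wild type it had 255.39, 234.97 and 237.87 FPKM at 500 mM in experiment 2, against 8.99, 7.49 and 12.23 at 50 mM, a 25.4-fold rise (log2 change 4.55, SE 0.14, adjusted p = 7.55e-11). In experiment 1 it had 58.00, 51.01 and 52.77 FPKM at 500 mM, against 6.15 and 3.09 at 50 mM, an 11.7-fold rise (3.34, SE 0.21, adjusted p = 1.4e-06). The groups stood far apart in both experiments, and the log2 rise was larger in experiment 2 by 1.21 (SE 0.29, adjusted p = 0.00922).

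In contrast to *mtl-1*, *ftn-1* still rose strongly in the *daf-16(m26)* mutant. *daf-16* embryos had 67.49, 86.62 and 73.04 FPKM at 500 mM, against 4.11, 4.66 and 3.92 at 50 mM, a 17.9-fold rise (log2 change 3.87, SE 0.14, adjusted p = 5.59e-10). *ssu-1* embryos had 14.72, 12.19 and 18.10 FPKM at 500 mM, against 2.17 and 2.23 at 50 mM, a 6.82-fold rise (2.31, SE 0.21, adjusted p = 3.03e-05). As a share of the wild-type fold these rises were 70.6% in *daf-16* and 58.4% in *ssu-1*.

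The *daf-16* change of *ftn-1* fell short of the wild-type change by 0.68 on the log2 scale (difference -0.68, SE 0.20, adjusted p = 0.0351). This call passed in only 5 of 19 alternatives, and leaving out any 1 of 9 libraries ended it, with adjusted p between 0.0517 and 0.09. These were wild-type 50 mM replicate 3, wild-type 500 mM replicates 4, 5 and 6, *daf-16* 50 mM replicates 1, 2 and 3, and *daf-16* 500 mM replicates 1 and 3. Where the series of the library number was a term of the fit, the difference was -0.33 (adjusted p = 0.225). That term matters because wild-type 50 mM replicates 3 and 4 carry numbers of another series (D17-16) than wild-type replicate 5 and all other libraries of experiment 2 (D17-22), so the comparison within a series rests on 1 wild-type library at 50 mM. For *ssu-1* the difference was -1.04 (SE 0.29, adjusted p = 0.142), and it was called only without wild-type 50 mM replicate 1 (-1.44, adjusted p = 0.0171).

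The levels themselves were lower in both mutants at high salt. *ftn-1* at 500 mM was 3.21-fold lower in *daf-16* than in wild type (log2 difference -1.67, SE 0.14, adjusted p = 4.48e-06) and 3.59-fold lower in *ssu-1* than in wild type (-1.79, SE 0.18, adjusted p = 0.000163). At 50 mM it was 2.26-fold lower in *daf-16* than in wild type (-0.99, SE 0.14, adjusted p = 0.00241). The *ssu-1* libraries at 50 mM were also below both wild-type libraries, 2.10-fold on average, but without a call (-0.76, SE 0.23, adjusted p = 0.224).

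*ftn-2* encodes the more abundant ferritin, which responds to iron less than *ftn-1*. By mean FPKM, which is per length, it was the highest of the 8 genes in 7 of the 8 groups, and its changes were small. Wild-type embryos of experiment 2 had 393.77, 398.37 and 371.37 FPKM at 500 mM, against 253.09, 200.75 and 281.73 at 50 mM, a 1.58-fold rise (log2 change 0.67, SE 0.11, adjusted p = 0.000128). Those of experiment 1 had 302.95, 299.17 and 292.70 FPKM at 500 mM, against 219.81 and 195.56 at 50 mM, a 1.44-fold rise (0.52, SE 0.06, adjusted p = 7.22e-05). The salt-treated libraries were above the low-salt ones in both experiments.

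Neither mutant had a smaller rise of *ftn-2*. In *daf-16* embryos it had 421.22, 425.80 and 399.66 FPKM at 500 mM, against 203.73, 176.81 and 196.69 at 50 mM, a 2.16-fold rise (log2 change 1.11, SE 0.11, adjusted p = 1.16e-06). In *ssu-1* embryos it had 299.33, 288.20 and 306.95 FPKM at 500 mM, against 193.96 and 186.77 at 50 mM, a 1.57-fold rise (0.64, SE 0.06, adjusted p = 2.87e-05). The change in *daf-16* exceeded that in wild type by 0.44 (SE 0.15, adjusted p = 0.0653), and by 0.65 with the library series as a term (adjusted p = 0.0175). Without wild-type 50 mM replicate 4, the lowest of its group, the excess was 0.57 (adjusted p = 0.0041). The difference for *ssu-1* was 0.12 (SE 0.08, adjusted p = 0.526).

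*scl-1* encodes a secreted protein of the SCP family that long-lived *daf-2* adults need for their lifespan. It was listed at 0 in 20 of the 22 libraries. The exceptions were 0.06 FPKM in wild-type 500 mM replicate 2 of experiment 1 and 0.08 FPKM in wild-type 500 mM replicate 6 of experiment 2, about 1 fragment each. It was not detectable at this depth in any other library and was not tested.

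*dod-3* is named as a gene downstream of DAF-16. Wild-type embryos of experiment 2 had 59.81, 61.47 and 49.66 FPKM at 500 mM, against 24.50, 18.66 and 21.26 at 50 mM, a 2.65-fold rise (log2 change 1.37, SE 0.13, adjusted p = 1.5e-06). Those of experiment 1 had 35.87, 36.45 and 44.62 FPKM at 500 mM, against 20.42 and 16.90 at 50 mM, a 2.09-fold rise (1.02, SE 0.13, adjusted p = 0.00016). These rises were smaller than those of *mtl-1* and *ftn-1*, with groups that did not overlap.

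The mutants of the 2 experiments were not tested against each other for *dod-3*. In *daf-16* embryos it was low at both concentrations, with 12.67, 9.47 and 9.72 FPKM at 500 mM and 9.72, 8.56 and 8.28 at 50 mM. These groups overlapped and the change was not called (log2 change 0.23, SE 0.13, adjusted p = 0.125), although it was called with rescaled totals (0.40, adjusted p = 0.0101) and with quantile-normalized values (0.37, adjusted p = 0.0249). *dod-3* was 5.37-fold lower in *daf-16* than in wild type at 500 mM and 2.43-fold lower at 50 mM, and the change differed from that of wild type by -1.14 (SE 0.19, adjusted p = 0.00208), a call that passed in each of 19 alternatives. In *ssu-1* embryos it had 34.63, 26.09 and 29.24 FPKM at 500 mM, against 15.31 and 15.33 at 50 mM, a 1.96-fold rise (0.92, SE 0.13, adjusted p = 0.000449). That rise was 93.7% of the wild-type fold, and its difference from wild type was -0.11 (SE 0.18, adjusted p = 0.828), with an interval of 2 SE from -0.47 to 0.25.

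*dao-3* encodes an enzyme of folate one-carbon metabolism and was first found as overexpressed in dauers and in aging adults. Its response depended on the experiment. Wild-type embryos of experiment 2 had 112.09, 118.14 and 120.28 FPKM at 500 mM, against 46.67, 57.33 and 56.02 at 50 mM, a 2.19-fold rise (log2 change 1.12, SE 0.08, adjusted p = 1.83e-07). Those of experiment 1 had 104.64, 105.57 and 100.48 FPKM at 500 mM, against 99.52 and 98.63 at 50 mM, a ratio of 1.05 (0.06, SE 0.06, adjusted p = 0.411). The high-salt levels of the experiments were close, and the low-salt level of experiment 2 was 0.538 times that of experiment 1.

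*dao-3* also rose in *daf-16* mutants. They had 102.03, 106.34 and 101.53 FPKM at 500 mM, against 48.63, 42.44 and 46.10 at 50 mM, 2.26-fold (log2 change 1.16, SE 0.08, adjusted p = 9.95e-08). The difference from the wild-type change was 0.04 (SE 0.12, adjusted p = 0.838), with an interval of 2 SE from -0.20 to 0.28. In *ssu-1* embryos it had 90.53, 101.66 and 98.56 FPKM at 500 mM, and 107.96 and 98.03 at 50 mM, which overlapped (-0.09, SE 0.06, adjusted p = 0.30).

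T20F7.6 was listed for this set as *aakg-4*, but the annotation names it *aakg-2*. Both encode gamma subunits of the AMP-activated protein kinase, the energy sensor of the cell, to which AMP binds. *aakg-2* hardly moved, staying between 24.77 and 31.18 FPKM in the 12 libraries of experiment 2 and between 33.15 and 38.41 in the 10 of experiment 1. Its wild-type log2 change was 0.00 in experiment 2 (SE 0.08, adjusted p = 0.979) and 0.06 in experiment 1 (SE 0.06, adjusted p = 0.39). In *daf-16* embryos the change was 0.11 (SE 0.08, adjusted p = 0.261), with a call only for rescaled totals (0.29, adjusted p = 0.0167).

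The gene annotated as *aakg-4*, T01B6.3, whose transcription DAF-16 is known to raise in adults, was examined after its values had been seen and is not counted among the 8. In wild type of experiment 2 it had 90.96, 85.13 and 80.14 FPKM at 500 mM, against 17.09, 14.26 and 15.64 at 50 mM, a 5.45-fold rise (log2 change 2.38, SE 0.13, adjusted p = 1.02e-08). In *daf-16* embryos it had 9.40, 14.37 and 10.33 FPKM at 500 mM, and 11.26, 10.67 and 12.10 at 50 mM (-0.02, SE 0.13, adjusted p = 0.913). The *daf-16* groups overlapped, and the difference from the wild-type change was -2.39 (SE 0.18, adjusted p = 4.78e-06).

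In experiment 1 *aakg-4* had 27.25, 23.31 and 27.83 FPKM in wild type at 500 mM, against 7.98 and 8.16 at 50 mM (3.24-fold, log2 change 1.58, SE 0.11, adjusted p = 3.03e-06). *ssu-1* embryos had 13.10, 13.63 and 14.92 FPKM at 500 mM, against 5.85 and 7.39 at 50 mM (2.10-fold, 0.97, SE 0.11, adjusted p = 0.000126). It was 1.88-fold lower in *ssu-1* than in wild type at 500 mM (-0.86, SE 0.10, adjusted p = 0.000343), and the difference between the changes was not called (-0.61, SE 0.15, adjusted p = 0.106). Of the 2 gamma subunit genes, *aakg-4* was called in all 4 salt changes but that of *daf-16*, and *aakg-2* in none.

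**Figure D2:**
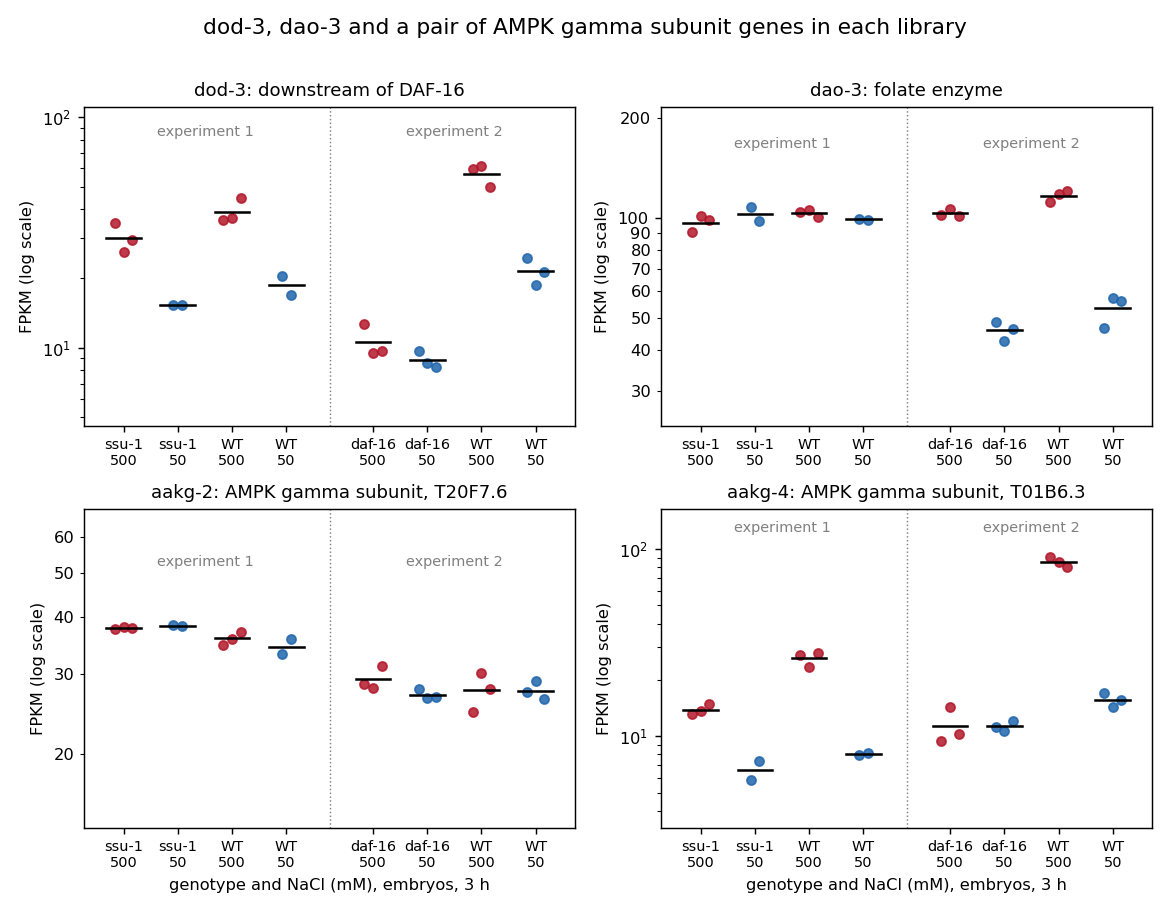
FPKM (log axis) of *dod-3*, *dao-3*, *aakg-2* (T20F7.6) and *aakg-4* (T01B6.3) in each of the 22 libraries by genotype and NaCl concentration; points are libraries, red at 500 mM and blue at 50 mM, and bars are group means. In *daf-16* embryos *dod-3* and *aakg-4* lie at similar levels at both concentrations, and *aakg-2* lies between 24.77 and 38.41 FPKM throughout.

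Counted over the 8 genes, of which 7 could be tested, most genes called in wild type were also called in the mutants. In *ssu-1* embryos 4 were higher and 1 lower at 500 mM than at 50 mM, beside 18.5% of all genes tested called higher and 18.1% lower. In *daf-16* embryos 4 were higher and 1 lower, beside 37.1% higher and 41.1% lower. Each set held the genes called in wild type of its own experiment, except that *dod-3* was not called in *daf-16* embryos. A call does not mean a rise of the same size. *mtl-1* was called in *daf-16* embryos with 9.0% of the wild-type fold.

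The tests of the difference between mutant and wild-type change picked fewer genes. For *ssu-1* only *mtl-1* was called, with a smaller rise, and 0 of 7 were called with a larger change, beside 0.689% of all genes lower and 0.682% higher. For *daf-16*, *mtl-1*, *dod-3* and *ftn-1* were called lower and 0 of 7 higher, beside 11.2% of all genes lower and 6.85% higher. With rescaled totals the split over all genes was 1167 lower and 1227 higher, against 1667 lower and 1018 higher as deposited, and *ftn-2* and *mtl-2* were then called higher.

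**Figure D3:**
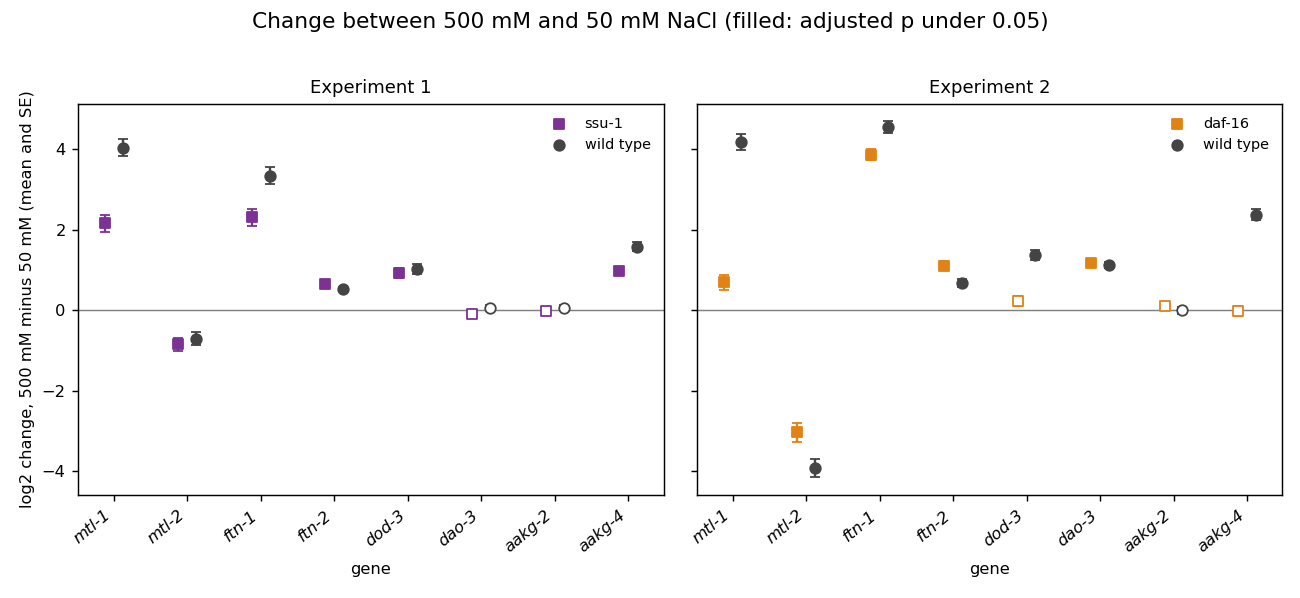
Log2 change between 500 mM and 50 mM NaCl (500 mM minus 50 mM, on log2(FPKM + 1)) for the 7 genes tested and *aakg-4*, in mutants (squares) and wild type (circles) of each experiment; bars are SE, and filled symbols passed an adjusted p of 0.05. In experiment 2 *mtl-1* is at 0.69 in *daf-16* and 4.18 in wild type, while *ftn-1* is at 3.87 and 4.55.

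At 500 mM, *ssu-1* embryos had lower *mtl-1*, *ftn-1* and *mtl-2* than wild type and 0 of 7 genes were higher, beside 2.82% of all genes lower and 2.83% higher. *daf-16* embryos had lower *mtl-1*, *ftn-1* and *dod-3* and higher *mtl-2* than wild type at 500 mM, beside 12.9% of all genes lower and 16.3% higher. At 50 mM none of the 7 genes differed between *ssu-1* and wild type by limma, beside 0.481% of all genes lower and 0.165% higher, although *aakg-2*, *ftn-1* and *mtl-2* had an unadjusted p under 0.05. In *daf-16* embryos at 50 mM *mtl-1*, *ftn-1* and *dod-3* were already lower than in wild type and 0 of 7 higher, beside 1.1% of all genes lower and 2.58% higher. That split over all genes was 163 lower and 384 higher as deposited, 174 and 254 with rescaled totals, and 218 and 271 with quantile-normalized values.

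**Figure D4:**
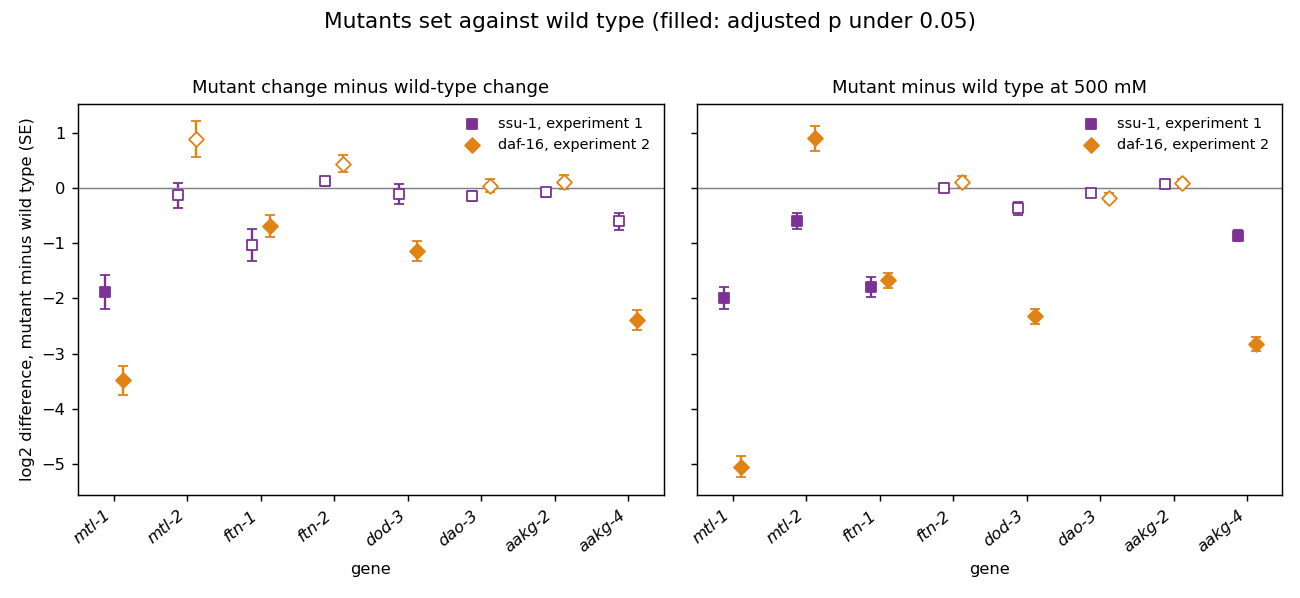
Log2 difference between mutants and wild type (mutant minus wild type) for the 7 genes tested and *aakg-4*: left, mutant salt change minus wild-type salt change; right, levels at 500 mM. Squares are *ssu-1* (experiment 1), diamonds *daf-16* (experiment 2), bars SE, and filled symbols passed an adjusted p of 0.05. *mtl-1* lies farthest below 0 in *daf-16*, at -3.49 and -5.05.

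The wild-type changes of the experiments could be set against each other in 1 fit over 14638 genes. *ftn-1* and *dao-3* changed more upward and *mtl-2* more downward in experiment 2, beside 17% of all genes higher and 14.6% lower. The difference was 1.06 for *dao-3* (SE 0.12, adjusted p = 0.000214) and -3.21 for *mtl-2* (SE 0.37, adjusted p = 0.000191). *dod-3* (0.35, SE 0.19, adjusted p = 0.196) and *ftn-2* (0.15, SE 0.17, adjusted p = 0.519) were not called. Beyond the library numbers, what differed between the experiments is not given in the sources used here, and the experiment and its batch cannot be told apart. The intestine marker sum of wild type at 50 mM also differed between them, at 4567 to 6608 FPKM in experiment 2 and 1575 to 2023 in experiment 1. The sum of 8 later-embryo markers was 2966 to 3895 FPKM at 50 mM in wild type of experiment 2 and 5063 to 5145 in experiment 1. At 500 mM that sum was 4030 to 4296 FPKM in experiment 2 and 4193 to 4572 in experiment 1. The part of these sums was not tested.

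Ordered by mean FPKM over all 8 groups, *mtl-1*, *ftn-1*, *dod-3*, *dao-3* and *aakg-4* were highest in wild type at 500 mM of experiment 2, and every library of that group was above every library of the next group. For *mtl-1*, wild type at 500 mM of experiment 1 came next, then wild type at 50 mM of experiment 2 and *ssu-1* at 500 mM, which overlapped. *daf-16* at 500 mM and at 50 mM followed, and wild type and *ssu-1* at 50 mM of experiment 1, overlapping, were lowest. For *mtl-2* the order was led by the 50 mM groups of experiment 2, wild type and *daf-16*, which overlapped at 55.2 ± 19 and 53.7 ± 7.8 FPKM (SD, n = 3 each) and stood above all other groups. For *ftn-2*, the 4 groups at 500 mM were above the 4 groups at 50 mM.

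Across the 22 libraries, with the mean of its experiment taken off each value, the genes whose log2(FPKM + 1) most resembled *mtl-1* were *aakg-4* (Pearson r = 0.98) and C37A5.5 (0.98), among 10434 genes with a mean of at least 5 FPKM. For *ftn-1* they were *dpsm-1* (0.99) and C37A5.3 (0.98), and for *dod-3* T04A8.7 (0.97) and C37A5.6 (0.96). *mtl-2* most resembled Y54G2A.45 and *acox-1.1*, a peroxisomal acyl-CoA oxidase gene (0.98 each). *ftn-2* resembled *pck-2*, a phosphoenolpyruvate carboxykinase gene, and *alh-9* (0.98 each), *dao-3* resembled *cpr-6* and *lrp-2* (0.98 each), and *aakg-2* resembled *gly-10* (0.80) and *gsp-1* (0.77) less closely. These are descriptions over libraries that share genotypes and NaCl concentrations. Among the 8 genes, *mtl-1* and *dod-3* went together (r = 0.94), and *mtl-2* ran opposite to *dao-3* (r = -0.94).

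The wider lists of related genes were described by counts. Of the textbook targets that DAF-16 raises in adults, 18 were tested in experiment 1 and 21 in experiment 2, besides the 8. Salt raised 11 and lowered 4 of them in wild type of experiment 1 (median log2 change 0.64, against -0.01 over all genes) and raised 9 and lowered 7 in experiment 2 (median 0.11, against 0.06). Over all genes 25.3% were called higher and 26.0% lower in experiment 1, and 36.7% higher and 33.5% lower in experiment 2, so that the counts of experiment 2 were near those shares. The small heat-shock gene *hsp-12.6* rose by 6.3 in wild type of experiment 2 (SE 0.29, adjusted p = 2.03e-09), the antimicrobial saposin gene *spp-1* changed by -4.54 (SE 0.18, adjusted p = 7.48e-10), and the lysozyme gene *lys-7* by -2.75.

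Some of these adult targets had a change that differed in the mutants. Compared with the wild-type change, 6 of 21 were lower and 1 higher in *daf-16* embryos, and 4 of 18 were lower and 0 higher in *ssu-1* embryos. Over all genes the shares were 11.2% lower and 6.85% higher for *daf-16*, and 0.689% lower and 0.682% higher for *ssu-1*. Among them the superoxide dismutase gene *sod-5* differed by -3.54 in *daf-16* (SE 0.26, adjusted p = 3.07e-06) and by -4.70 in *ssu-1* (SE 0.21, adjusted p = 1.07e-06). *hsp-12.6* differed by -5.04 in *daf-16* and -2.94 in *ssu-1*. Its mean in *daf-16* was 5.09 FPKM at 500 mM and 1.63 at 50 mM, and 219 and 1.97 in wild type of experiment 2. The changes of *spp-1* did not pass (-0.17, adjusted p = 0.667, and 0.64, adjusted p = 0.417). At 500 mM 13 of the 21 were lower in *daf-16* than in wild type and 0 were higher, beside 12.9% of all genes lower and 16.3% higher.

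Of the *dod* genes that DAF-16 lowers in adults, salt lowered 5 of 6 tested in wild type of experiment 2 (median log2 change -1.97) and 3 of 5 in experiment 1 (median -1.53), where *dod-18* rose (0.48). Over all genes 33.5% were called lower in experiment 2 and 26.0% in experiment 1. *dod-24*, a CUB-like domain gene, changed by -4.71 in experiment 2 (SE 0.16, adjusted p = 1.51e-10), and by -4.76 in *daf-16* embryos. *dod-19* fell less in the mutants, with differences of 1.06 for *daf-16* (adjusted p = 0.00138) and 1.01 for *ssu-1* (adjusted p = 0.0126). Of 3 other *dao* genes tested, 2 rose in wild type of each experiment. Over all genes 36.7% were called higher in experiment 2 and 25.3% in experiment 1. *dao-6* rose by 4.46 in wild type of experiment 2 and its change differed by -3.32 in *daf-16* (SE 0.33, adjusted p = 4.69e-05) and by -2.23 in *ssu-1* (SE 0.40, adjusted p = 0.0246). *dao-5* rose in experiment 1 and *dbd-2*, listed as *dao-2*, in experiment 2 (1.74, SE 0.17, adjusted p = 1.78e-06), as *dao-3* did.

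Around the ferritins, 13 other genes of iron uptake, export and sensing were tested in experiment 2, of which salt raised 4 and lowered 6 in wild type (median log2 change -0.11), and 11 in experiment 1, of which it raised 6 and lowered 2 (median 0.28). Over all genes 36.7% were called higher and 33.5% lower in experiment 2, and 25.3% higher and 26.0% lower in experiment 1. The divalent metal transporter genes *smf-1* and *smf-3* changed by 0.84 and -0.61 in wild type of experiment 2, and the iron exporter gene *fpn-1.1* by -0.38. The largest falls among the iron genes were those of its relative *fpn-1.2* (-1.23, SE 0.18, adjusted p = 6.06e-05) and of the heme-responsive gene *hrg-2* (-1.09, SE 0.18, adjusted p = 0.000163). Around the metallothioneins, 12 genes of the zinc, cadmium and copper response were tested in experiment 2, of which 0 rose and 7 fell in wild type (median -0.37). In experiment 1, 2 of 10 rose and 3 fell (median 0.00). Beside these stand 36.7% of all genes called higher and 33.5% lower in experiment 2, and 25.3% higher and 26.0% lower in experiment 1, to which the counts of experiment 1 were near. The cadmium-responsive gene *cdr-1* changed by -3.0 in wild type of experiment 2 (SE 0.20, adjusted p = 4.69e-08) and by -1.25 in experiment 1. *numr-1*, named for nuclear localized metal responsive, changed by -3.95 in wild type of experiment 2 (SE 0.27, adjusted p = 6.79e-08). So *cdr-1* and *numr-1* moved in experiment 2 as *mtl-2* did and not as *mtl-1* did. In experiment 1 *numr-1* averaged 2.49 FPKM at 500 mM and 2.75 at 50 mM in wild type. In *ssu-1* it averaged 9.44 and 2.41, unlike *mtl-2*.

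Of 14 other genes of AMP-activated kinase and its activators and effectors, salt raised 9 and lowered 3 in wild type of experiment 2 (median log2 change 0.31) and raised 6 and lowered 2 in experiment 1 (median 0.12), beside 36.7% of all genes higher and 33.5% lower in experiment 2 and 25.3% higher and 26.0% lower in experiment 1. The catalytic subunit gene *aak-2* changed by 1.12 in experiment 2 (SE 0.09, adjusted p = 1.88e-07), and less in *daf-16* (difference -0.55, SE 0.12, adjusted p = 0.0112). The gamma subunit gene *aakg-3* changed by -1.62. Of the relatives of *scl-1*, 9 were tested in experiment 2, of which salt lowered 8 and raised 0 in wild type (median -1.93). In experiment 1 it lowered 5 of 8 and raised 0 (median -0.75). Over all genes 33.5% were called lower and 36.7% higher in experiment 2, and 26.0% lower and 25.3% higher in experiment 1. *scl-3* changed by -3.49 in wild type of experiment 2 (SE 0.15, adjusted p = 1.29e-09). There *scl-24* averaged 0.31 FPKM at 500 mM and 25.3 at 50 mM. Of 11 folate and one-carbon genes, salt raised 2 and lowered 6 in wild type of experiment 2 (median -0.46) and raised 3 and lowered 2 in experiment 1 (median -0.09), where the shares over all genes were 36.7% higher and 33.5% lower in experiment 2 and 25.3% higher and 26.0% lower in experiment 1. The folate transporter gene *folt-1* changed by -1.73 and the S-adenosylmethionine synthetase gene *sams-1* by -1.49 in wild type of experiment 2, while *alh-3* (0.85, SE 0.08, adjusted p = 1.01e-06) and *mthf-1* (0.67, SE 0.08, adjusted p = 6.35e-06) rose, as *dao-3* did.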

How the data were processed

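RNA-seq of 22 embryo libraries (NeoPrep, NextSeq500, strand-specific, paired-end) was used. Per the labels and methods, the authors mapped reads with RSEM 1.2.15 and Bowtie 1.0.1 to ce10 with WormBase gene models and deposited FPKM per gene and library. Of 45461 rows, 1 whose name is only a digit was not used and 23483 were at 0 in all libraries. Names came from RefSeq for another assembly, WBcel235 (44079 identifiers matched), so no coordinates or sequences are given.

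limma 3.58.1 (R 4.3.3; lmFit, eBayes with trend, two-sided) was fitted to log2(FPKM + 1) over all libraries of an experiment, keeping genes that reached 1 FPKM in 2 or more of the fit's libraries, and was checked on simulated data. Experiments were told apart by library number (D16 or D17). The authors' methods used DESeq2 on expected counts, which were not used here. Depth was estimated from steps of low FPKM in 7694 genes, together with an offset, the bases taken off each transcript's length. It was returned within 1.33% in 4 simulated libraries. Their offsets were larger than those fitted to the real libraries, so the simulation does not cover that setting. With the offset held at 100 the estimates differed by up to 8.1%. Alternatives were a pseudocount of 0.1, no filter, rescaled or quantile-normalized FPKM, no trend, the replicate number as a block, the library series and each library left out. Genes named were taken from the 8, the 2 genes most like each of them, and *ssu-1*, *daf-16*, *sod-3* and *sod-5*. From each list and experiment they were taken from the 2 called genes with the largest and the 2 with the smallest wild-type change. Some of these list genes are not named above. *aakg-4* was added after its values were seen. The 8 genes and the lists were chosen with earlier results of these data known. Figures were drawn with matplotlib 3.10.9.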

Additional observations from a re-analysis of the deposited data

Results flagged for a closer look

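The wild-type salt change differed between the experiments for 4 genes, by the test of the interaction of experiment and NaCl (limma, adjusted over 14638 genes). As experiment 2 minus experiment 1 on the log2 scale, the difference was 1.21 for *ftn-1*, 1.06 for *dao-3*, 0.80 for *aakg-4* and -3.21 for *mtl-2*. All wild-type libraries at 500 mM of experiment 2 were above all those of experiment 1 for *ftn-1*, *dao-3* and *aakg-4*, and below them for *mtl-2*. At 50 mM *mtl-2* was at 7.51 times and *dao-3* at 0.538 times the level of experiment 1, again with no overlap.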

How the results depend on the processing

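Of 1351 results for the 8 genes under alternatives, 1306 kept their direction and side of the threshold, 28 lost the call, 17 gained it and 0 called ones reversed. Without the filter, the *ssu-1* minus wild-type change gave 0 of the 8 genes (1 as reported) and 119 of all genes (191). With rescaled totals, the *daf-16* minus wild-type change gave 5 of the 8 (3). With the library series as a term, *daf-16* against wild type at 50 mM gave 1186 of all genes (547).

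No label says that replicate numbers pair samples of different groups. In experiment 2, wild type and *daf-16* shared only number 3, held in wild type by 50 mM replicate 3 alone. The block fit therefore compared *daf-16* levels with wild type through that library. Wild type of the 2 experiments likewise shared only number 3. Calls lost with the block in these comparisons cannot be told apart from this small overlap of numbers. Same-numbered libraries had correlated deviations above 0.1 in 3 of 13 pairs in experiment 1 (r from -0.40 to 0.25) and 3 of 7 in experiment 2 (-0.29 to 0.28). In groups of 2 libraries the deviations mirror each other, so these pairs are not independent. The correlations therefore cannot decide whether the numbers pair samples. With the number as a block, the calls over all genes were 1338 for the *daf-16* minus wild-type change (2685 without), 613 for *daf-16* against wild type at 500 mM (4348), 189 at 50 mM (547), with 1 of the 8 genes (3), and 1252 for the difference between experiments (4621). Under it *mtl-1* and *ftn-1* lost the *daf-16* call at 50 mM (adjusted p = 0.054 and 0.0767), *mtl-2* the one at 500 mM (log2 difference 0.40, against 0.90 without the block, adjusted p = 0.575), *ftn-1* the one between experiments (0.0889), *mtl-2* the one for *ssu-1* at 500 mM (0.0717) and *ftn-1* the one for *daf-16* minus wild type (0.0985), while the *daf-16* salt change of *dod-3* gained a call (0.23, adjusted p = 0.0386).

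Leaving out 1 library at a time gave ranges of genes called. Over all genes these were 4250 to 7185 for the wild-type change of experiment 1, 3160 to 5100 for *ssu-1*, 93 to 349 for *ssu-1* minus wild type, 453 to 856 for *ssu-1* against wild type at 500 mM and 31 to 154 at 50 mM. In experiment 2 they were 1268 to 3930 for *daf-16* minus wild type, 2234 to 5389 for *daf-16* against wild type at 500 mM, 148 to 1910 at 50 mM, and 2585 to 6264 between experiments. Of the 8 genes, 0 to 1 were called for *ssu-1* against wild type at 50 mM and 2 to 5 for *daf-16* minus wild type. The count for *daf-16* against wild type at 50 mM was 1910 without wild-type replicate 4, and 274, 148 and 160 without *daf-16* replicate 1, 2 or 3. The lowest counts came without wild-type 50 mM replicate 1 for the wild-type change of experiment 1, for *ssu-1* minus wild type and for *ssu-1* against wild type at 50 mM, without *ssu-1* 50 mM replicate 1 for the *ssu-1* change, and without wild-type 50 mM replicate 2 of experiment 1 for the difference between experiments. For *daf-16* minus wild type the count was 1268 to 1585 without wild-type 500 mM replicate 4, *daf-16* 50 mM replicate 2 or 3 or *daf-16* 500 mM replicate 1 or 3. A group left with 1 library was assumed to vary like the others. Rescaling moved the median log2 change of all genes by 0.10 in wild type and 0.16 in *daf-16* of experiment 2. The depth limits *mtl-2* at 500 mM, at most 41.9 fragments per library, and *scl-1*.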
